A study of Mus musculus with 120 samples.

Results

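The 10 genes of the glucose-sensing network around *Txnip* and *Arrdc4* that were followed in scaffold tissue of mice that did or did not become diabetic were *Txnip*, *Arrdc4*, *Mlxip*, *Mlxipl*, *Slc2a1*, *Slc2a3*, *Slc2a4*, *Hk2*, *Pfkfb3* and *Pdk4*. They were taken by gene symbol, and all 10 were found among the 55487 genes that both count tables list, of which 41759 had a count in some sample. *Arrdc4* first drew attention because it was higher at the later times before onset than at 5 weeks before onset in progressors, so its values in that contrast, and in every comparison that uses onset, are given as a description with no test. *Arrdc4* was thus selected on these measured values, and the other 9 members for their known place beside it. The samples were bulk RNA sequencing libraries of immunological niches (INs), microporous poly(ε-caprolactone) scaffolds that were placed under the skin of female mice at 4 weeks of age, explanted from 6 weeks of age on and replaced with new scaffolds at each biopsy. NOD/ShiLtJ mice, which develop autoimmune diabetes, were grouped as 10 progressors, which became hyperglycemic, and nonprogressors, which kept normal blood glucose. From progressors came 10 samples of 6-week-old mice, 8 taken 7 weeks ahead of hyperglycemia (−7 weeks), and 10 apiece for −5, −3, −1 and onset. Nonprogressors had 11 at 6 weeks, 4 at 10 weeks, 10 at 14 weeks, 4 at 18 weeks and 4 at 22 weeks. NOR/LtJ mice, a related strain that does not become diabetic, gave 23 samples of 5 mice at 6, 10, 14, 18 and 22 weeks. Isoflurane anesthesia and carprofen analgesia at each surgery were common to all groups. The early glucose tolerance test that the paper reports was made in a separate group of NOD mice. Each sample was another scaffold of the same set of mice, and progressor samples were aligned to onset while control groups were sampled by age, so that ages were not matched.

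TXNIP and ARRDC4 are α-arrestins, adaptor proteins that hold glucose transporters back from the cell surface and so limit glucose uptake. Their genes are the best-known targets of MondoA (encoded by *Mlxip*) and ChREBP (encoded by *Mlxipl*), transcription factors that pair with MLX, enter the nucleus when phosphorylated glucose accumulates and bind carbohydrate response elements, which are a pair of E-box-like motifs a few bases apart. *Slc2a1*, *Slc2a3* and *Slc2a4* encode the glucose transporters GLUT1, GLUT3 and the insulin-responsive GLUT4. Hexokinase 2 (*Hk2*) phosphorylates glucose, the bifunctional enzyme of *Pfkfb3* speeds glycolysis through fructose 2,6-bisphosphate, and pyruvate dehydrogenase kinase 4 (*Pdk4*) shuts off the oxidation of pyruvate, typically when insulin is low or fat is burned.

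The upstream sequences of *Txnip* and *Arrdc4* are shown because these were the members whose levels at onset lay wholly above those at 6 weeks, and because the motif that MondoA and ChREBP read can be looked up in them. Both come from RefSeq promoters of build GRCm38.p6 and are written 5′ to 3′ on the strand of the gene. The *Txnip* stretch is chr3:96557827-96557933 on the plus strand, from −130 to −24 relative to the transcription start, and capitals mark the pair of boxes in a tandem match to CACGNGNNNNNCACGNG that begins at −85. The *Arrdc4* stretch is chr7:68749381-68749476 on the minus strand, from −238 to −143, and capitals mark a match to the E-box CACGTG at −193.
Txnip: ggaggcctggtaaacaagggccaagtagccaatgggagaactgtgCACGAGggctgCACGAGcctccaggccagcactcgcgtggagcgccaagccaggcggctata
Arrdc4: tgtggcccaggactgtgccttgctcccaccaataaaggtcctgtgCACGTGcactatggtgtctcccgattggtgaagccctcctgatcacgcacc
Both strands were searched, from 250 bases before to 50 bases after each start. The tandem form occurred in 16 of 32817 RefSeq promoters (0.0488%), and among the 8 members with a promoter entry only that of *Txnip* held it. The single E-box CACGTG occurred in 2346 promoters (7.15%), and it was found for *Arrdc4*, for one of the 2 *Mlxipl* promoters (at −98) and for one of the 2 *Pfkfb3* promoters (at −53). A match describes the letters in this window and is not a measured binding site.

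Estimated counts per library had a median of 33487260 (4722396 to 56185434). All NOR samples and all 10, 18 and 22-week nonprogressor samples belonged to batch 1, all −7 samples to batch 2, and progressor onset and 6-week samples were split 5 and 5 between the batches. The −7 samples of progressors 1 to 4 were in batch 2 and their other samples in batch 1. Every comparison of −7 weeks within batch 2 is therefore partly one between different mice. Some libraries stood apart: the 18-week library of NOR mouse 5 had 85.7% of its counts on a single gene, and the 4 nonprogressor libraries of 22 weeks had 12.8% to 30.5% of theirs on *Rn7s2*, against 17.5% at most for the leading gene in progressors. Macrophage markers (6 genes, summed 1369 to 3331 CPM) and fibroblast markers (5 genes, 4575 to 54550 CPM) were present in each of the 120 samples. Levels are given below as CPM, which are counts scaled to a common library size by edgeR's TMM factors. In bulk tissue, fewer cells that express a gene and less RNA per cell cannot be told apart.

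Per kilobase of exon, *Txnip* was the highest of the 10, with a median of 117.3 CPM per kb over all samples, followed by *Slc2a1* (74.0), *Hk2* (25.5), *Pfkfb3* (18.8), *Mlxip* (16.2) and *Arrdc4* (10.2 CPM per kb). *Slc2a3* (1.88), *Pdk4* (1.63) and *Slc2a4* (1.56 CPM per kb) were low, and *Mlxipl* was the lowest at 0.406 CPM per kb. The transcript of MondoA was thus far above that of ChREBP in this tissue on the length-corrected scale.

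*Txnip* (chromosome 3, 96557957 to 96561883 of GRCm38, plus strand) rose 1.99-fold in progressors between 6 weeks of age and onset. At 6 weeks its level in the 10 progressors ran from 199.1 to 405.9 CPM (median 292.7), and at onset from 441.8 to 893.3 CPM (median 576.6). The ranges did not overlap, and each of the 10 mice was higher at onset, by 0.35 to 1.77 on the log2 scale. Across all genes tested, a range at onset wholly above that at 6 weeks was seen for 0.705%, and one wholly below it for 0.559%. The fitted difference was 0.99 ± 0.15 (SE, log2; edgeR quasi-likelihood test, Benjamini-Hochberg adjusted p = 5.93e-07), in a comparison where 39.6% of 21279 genes passed. Within batches the difference was 0.73 ± 0.24 in batch 1 (adjusted p = 0.0356, edgeR) and 1.34 ± 0.15 in batch 2 (adjusted p = 8.62e-08, edgeR).

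The course between these times was not the same in both batches. At −7 weeks, when all 8 samples belonged to batch 2, *Txnip* ran from 345.2 to 627.3 CPM, and against the 5 progressors of batch 2 at 6 weeks it was 0.74 ± 0.14 higher (adjusted p = 0.000383, edgeR). Fitted over all progressor samples with a batch term, the same difference was 0.40 ± 0.16 and missed the threshold (adjusted p = 0.0967, edgeR; 12.5% of genes passed). At −5 weeks the mean was 387.3 ± 134.8 CPM (SD, n = 10), with every batch 1 mouse at or below 384.6 and every batch 2 mouse at or above 449.9. The means at −3 weeks (457.6 ± 152.1 CPM) and −1 week (436.7 ± 119.4 CPM) lay close together and well within the spread of the −5 and −7 samples. Within batch 2, which alone holds −7 samples, the order of the means was 6 weeks (289.4 CPM), −7 (483.6), −5 (495.5), −1 (529.1), −3 (578.6) and onset (742.7 CPM), and the ranges of −7, −5, −3 and −1 weeks overlapped one another. Within batch 1 it was −5 (279.0 CPM), 6 weeks (303.4), −3 (336.5), −1 (344.2) and onset (501.3 CPM). The −7 samples included those of progressors 1 to 4, all of whose other samples belonged to batch 1. Progressors 6, 7, 9 and 10 had 345.2, 627.3, 521.0 and 614.6 CPM at −7 weeks. The place of −7 in the batch 2 order and the difference of 0.74 thus partly compare different mice. Over both batches, among these times only 6 weeks and onset had ranges apart from each other.

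**Figure D1:**
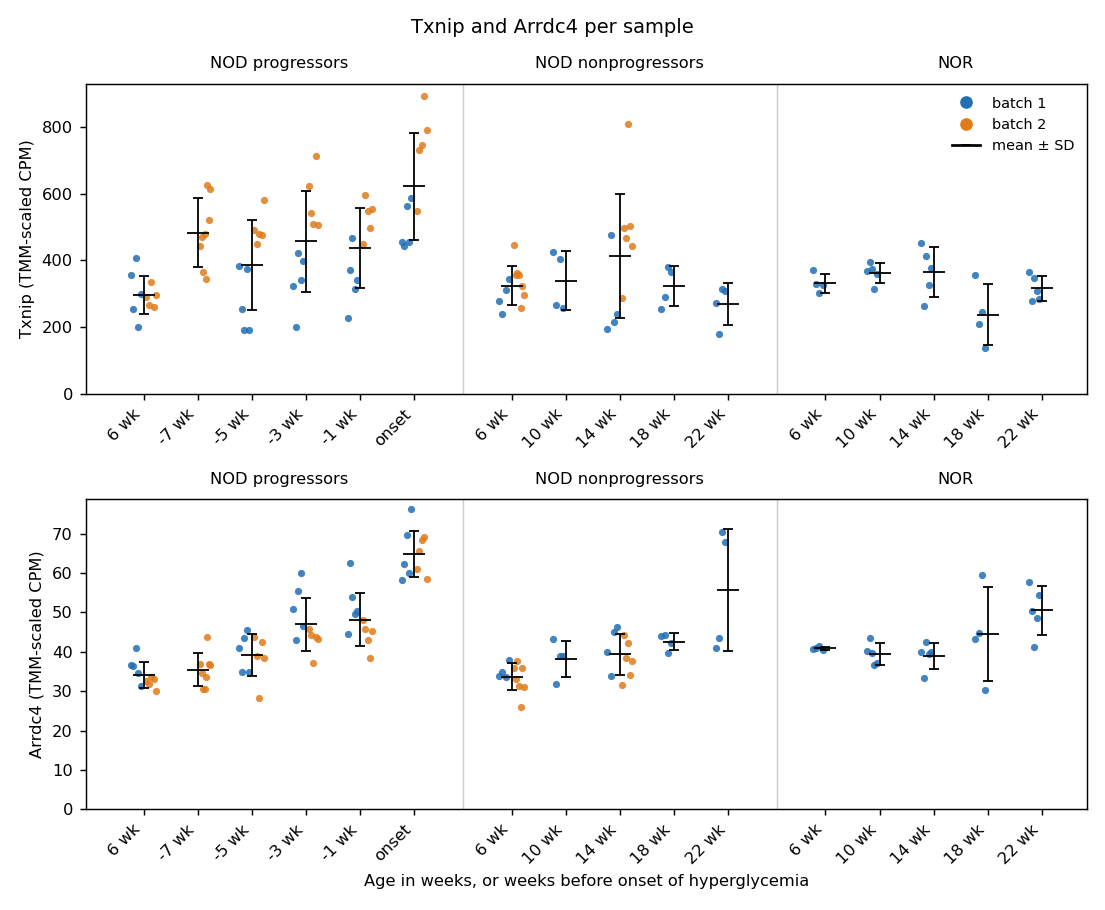
*Txnip* (top) and *Arrdc4* (bottom) in TMM-scaled CPM for each sample of progressors, nonprogressors and NOR by age or weeks before onset, colored by batch, with bars for the mean ± SD. All 10 onset samples lie above all 10 progressor samples of 6 weeks for both genes, and the nonprogressor samples of 22 weeks split into a pair at 41.0 and 43.5 CPM and a pair at 67.8 and 70.4 CPM of *Arrdc4*.

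*Arrdc4* (chromosome 7, 68736995 to 68749241, minus strand) was lower in level but far tighter among mice. It ran from 30.1 to 41.0 CPM at 6 weeks (median 33.4), from 30.6 to 43.8 CPM at −7 weeks (median 35.7) and from 28.2 to 45.5 CPM at −5 weeks (median 40.0). At −3 weeks the range was 37.0 to 60.0 CPM (median 45.02), at −1 week 38.3 to 62.6 CPM (median 46.9) and at onset 58.4 to 76.3 CPM (median 63.9). The SD at onset was 5.84 CPM about a mean of 64.9 CPM. All onset samples thus lay above all samples of 6, −7 and −5 weeks, while the −3 and −1 samples filled the gap and nearly coincided with each other. Against 6 weeks, 0.705% of all genes tested had an onset range wholly above. No such share was computed for −7 and −5 weeks, and the −5 samples entered the choice of the gene. Each of the 10 mice was higher at onset than at 6 weeks, by 0.66 to 1.27 on the log2 scale, and the fitted difference was 0.91 ± 0.07 (log2), with 0.87 ± 0.11 in batch 1 and 0.98 ± 0.10 in batch 2. In the contrast that drew attention to the gene, the mean of −3, −1 and onset against −5 weeks, its difference was 0.41 ± 0.06, and that of *Txnip* was 0.37 ± 0.12 (82 of 21279 genes, 0.385%, passed a threshold there). No test is attached to either value.

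At −7 weeks, in samples that the choice of the gene did not use, *Arrdc4* did not pass the test against 6 weeks (0.13 ± 0.08, 95% interval −0.03 to 0.29, adjusted p = 0.314, edgeR). Within batch 2 the difference was 0.14 ± 0.09 (adjusted p = 0.302, edgeR), beside the 0.74 of *Txnip* in the same libraries.

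Onset against the mean of −3 and −1 weeks uses libraries by which *Arrdc4* was chosen, so its value there is a description. The difference was 0.44 ± 0.06 (log2), a 1.36-fold higher level, and all 10 mice were higher at onset than at the mean of their own −3 and −1 samples, by 0.14 to 0.77. Over all 21279 genes, 0.0235% passed the threshold in that comparison, while 2866 had an unadjusted p under 0.05. These figures are no test of *Arrdc4*, which was chosen from these libraries. Among the genes past the threshold was *Klf10*, a Krüppel-like repressor that answers to both TGF-β and glucose and was on the list of carbohydrate-responsive genes, at 0.41 ± 0.07 (adjusted p = 0.00819, edgeR). Besides it, *Gm37568* (1.20 ± 0.24) and *Gm38082* (0.42 ± 0.08), predicted genes, were higher at onset and *Tmem120a* (−0.48 ± 0.10) was lower (each adjusted p = 0.0359, edgeR). These 3 were singled out after their values were seen.

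The difference of *Arrdc4* was 0.56 ± 0.08 within batch 2 alone, where no −3 or −1 sample reached the lowest onset sample. Within batch 1 alone it was 0.34 ± 0.09 and no gene passed, and 2 of 10 samples of −3 and −1 weeks lay above the lowest onset sample there. The share of all genes with ranges apart between these times was not computed. *Txnip* was also higher at onset than at its own −3 and −1 mean in all 10 mice, by 0.05 to 0.75, yet missed the threshold over all samples (0.48 ± 0.12, adjusted p = 0.168, edgeR). It passed within batch 2 (0.41 ± 0.13, adjusted p = 0.0423, edgeR) and with DESeq2 (0.49 ± 0.13, adjusted p = 0.0450).

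The level of *Klf10* in progressors was 38.8 to 50.9 CPM at 6 weeks and 51.9 to 83.3 CPM at onset, without overlap. Of all genes tested, 0.705% had an onset range wholly above that at 6 weeks. The onset mean of *Klf10*, 66.5 ± 11.3 CPM (SD, n = 10), compared with 48.2 ± 6.68 CPM in nonprogressors of 14 to 22 weeks (n = 18) and 44.4 ± 6.18 CPM in NOR of those ages (n = 14). Its change from 6 weeks exceeded the nonprogressor change by 0.51 ± 0.11, which did not pass (adjusted p = 0.116, edgeR). Within batch 1 it exceeded the NOR change by 0.44 ± 0.16, which did not pass either (adjusted p = 0.24, edgeR). *Klf10* was also the gene whose variation among progressor samples of the same time and batch was most like that of *Arrdc4* (Pearson r = 0.58 of log2 CPM over 58 samples, among 21279 genes), ahead of *Cntd1* (0.57), *4930519P11Rik* (0.55), *Zfp14* (0.55) and *Rslcan18* (0.54). The genes most like *Txnip* were *Ppp1r9a* (0.69), *Zkscan7* (0.67), *Vsig10* (0.67), *Trf* (0.67), which encodes transferrin, and *Fgf10* (0.66). *Txnip* and *Arrdc4* themselves had r = 0.49, over points that share library preparation, depth and tissue makeup.

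Nonprogressors served as normoglycemic mice of the same strain. At 6 weeks no gene of 20454 differed between progressors and nonprogressors (0% passed, 839 genes had an unadjusted p under 0.05, and DESeq2 also called none), and *Txnip* differed by −0.07 ± 0.14 (95% interval −0.35 to 0.21) and *Arrdc4* by −0.01 ± 0.07 (−0.14 to 0.12). The interval for *Arrdc4* therefore excluded differences of the size seen later. In nonprogressors *Txnip* ran from 237.6 to 446.9 CPM at 6 weeks (median 322.0) and from 178.0 to 808.6 CPM at 14 to 22 weeks (median 310.7).

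At onset, *Txnip* was higher in progressors than in nonprogressors of 14 to 22 weeks, whose libraries were summed to 1 per mouse, by 0.64 ± 0.14 (log2; adjusted p = 0.0157, edgeR), in a comparison where 3.39% of genes passed. Of the 9 members tested, *Txnip* was the one called higher, while *Slc2a4* and *Pdk4* were called lower (1.68% and 1.71% of all genes). The ranges overlapped, with 6 of 18 nonprogressor samples above the lowest onset sample. The difference was 0.82 ± 0.18 within batch 1, where it did not pass (adjusted p = 0.750, edgeR) and no gene did, and 0.53 ± 0.18 within batch 2 (adjusted p = 0.0446, edgeR). Leaving out nonprogressor 8, whose 14-week sample was the highest of its group, or any other mouse in turn kept the call in 21 of 21 fits (adjusted p up to 0.0463), and against 14-week libraries alone the difference was 0.63 ± 0.17 (adjusted p = 0.0273, edgeR). With no batch term the call was lost (0.58 ± 0.17, adjusted p = 0.0982, edgeR), and none of the 9 members passed. The change from 6 weeks was larger in progressors than in nonprogressors by 0.71 ± 0.20 (log2), which did not pass (adjusted p = 0.189, edgeR; 5 of 20454 genes, 0.0244%, passed). It was 0.78 ± 0.26 within batch 1 and 0.79 ± 0.25 within batch 2, neither of which passed (adjusted p = 0.465 and 0.101, edgeR).

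*Arrdc4* at onset exceeded that in nonprogressors by 0.65 ± 0.07 (log2; 0.51 ± 0.11 in batch 1 and 0.73 ± 0.09 in batch 2, and 0.71 ± 0.07 against 14-week libraries alone), given without a test. Nonprogressor levels were 31.5 to 46.3 CPM at 14 weeks (n = 10) and 39.7 to 44.4 CPM at 18 weeks (n = 4), all below the lowest onset sample of 58.4 CPM. The share of all genes with such a separation was not computed. At 22 weeks the 4 nonprogressors had 41.0, 43.5, 70.4 and 67.8 CPM, so that 2 of them lay within the range of the hyperglycemic mice. In the same order 12.8%, 19.2%, 24.3% and 30.5% of the counts of these libraries fell on *Rn7s2*, a 7S RNA gene, and its part in the result was not tested.

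*Arrdc4* also rose with age in mice without hyperglycemia. The difference between 14 to 22 and 6 weeks in nonprogressors was 0.28 ± 0.07 (adjusted p = 0.00193, edgeR; 30% of genes passed), 0.38 ± 0.11 in batch 1 (adjusted p = 0.0443) and 0.20 ± 0.08 in batch 2 (adjusted p = 0.0734). With the 14-week libraries alone, which leaves out 18 and 22 weeks, it was 0.20 ± 0.06 (adjusted p = 0.0173, edgeR). *Txnip* had a difference of 0.33 ± 0.14 in the same mice (adjusted p = 0.0691), with −0.04 ± 0.19 in batch 1 (adjusted p = 0.907) and 0.54 ± 0.17 in batch 2 (adjusted p = 0.0177, edgeR). In the same comparison all 5 fibroblast markers were lower (median −1.04), all 7 adipocyte markers were higher (median 4.10) and 7 of 8 muscle markers were higher (median 3.27), as they also stood beside the rises of *Mlxip* and *Pfkfb3* with age given below, and their part was not tested. The excess of the progressor change of *Arrdc4* over the nonprogressor change was 0.66 ± 0.10 (log2), described without a test.

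In NOR mice neither gene passed the test with age. *Txnip* was 302.7 to 370.9 CPM at 6 weeks (n = 4) and 136.3 to 453.3 CPM at 14 to 22 weeks (n = 14), a difference of −0.05 ± 0.16 (adjusted p = 0.988, edgeR; 27 of 20051 genes, 0.135%, passed). *Arrdc4* was 40.5 to 41.5 CPM at 6 weeks and 30.3 to 59.6 CPM at 14 to 22 weeks, a difference of 0.13 ± 0.09 (adjusted p = 0.846, edgeR). The lowest value of each gene came from the 18-week library of mouse 5 named above, and without that mouse the differences were −0.07 ± 0.19 for *Txnip* and 0.12 ± 0.11 for *Arrdc4*. At 22 weeks *Arrdc4* was higher than at 6 weeks in all 4 NOR mice sampled at both ages, by 0.22 to 0.50, and at 14 weeks it was lower in 4 of 4. Only 1 of 14 late NOR samples exceeded the lowest onset sample, for *Txnip* and *Arrdc4* alike. The progressor change exceeded the NOR change, within batch 1, by 0.78 ± 0.22 for *Txnip* (adjusted p = 0.146, edgeR; 0.0349% of genes passed) and by 0.74 ± 0.12 for *Arrdc4*, without a test. Between nonprogressors and NOR at 14 to 22 weeks, *Txnip* differed by −0.17 ± 0.16 and *Arrdc4* by 0.04 ± 0.09, and none of the 10 members passed (2.05% of 20051 genes did).

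**Figure D2:**
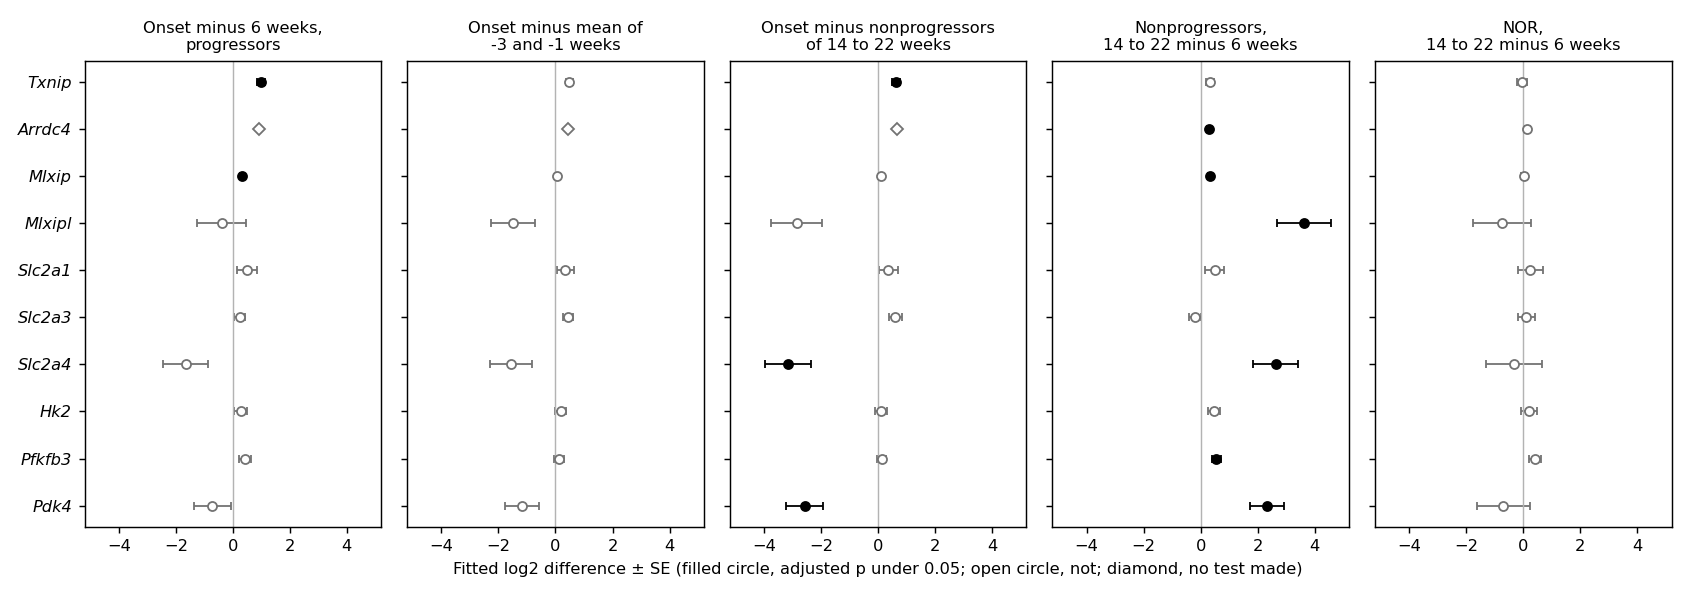
Fitted log2 difference ± SE of the 10 members in 5 comparisons, with filled circles for an adjusted p under 0.05 (edgeR), open circles for values that did not pass and diamonds where no test was made. *Txnip* and *Arrdc4* lie right of 0 in each comparison with onset, and *Mlxipl*, *Slc2a4* and *Pdk4* have the widest errors.

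The glucose sensors themselves moved little or with great scatter. *Mlxip* (chromosome 5, 123394798 to 123457932, plus strand) ran from 94.0 to 157.4 CPM in progressors at 6 weeks (median 106.2) and from 119.3 to 164.9 CPM at onset (median 139.7). The ranges overlapped, but all 10 mice were higher at onset, and the difference of 0.31 ± 0.07 passed (adjusted p = 0.000350, edgeR). The same difference was 0.50 ± 0.08 in batch 2 (adjusted p = 2.36e-05) and 0.16 ± 0.11 in batch 1, where it did not pass (adjusted p = 0.344). With *Txnip*, *Mlxip* made 2 of the 9 members tested that passed, both higher, where 19.6% of all genes were called higher and 20% lower.

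*Mlxip* also rose with age in nonprogressors. It was 0.32 ± 0.07 higher at 14 to 22 than at 6 weeks (adjusted p = 0.00109, edgeR), from 106.6 ± 14.1 CPM (SD, n = 11) to 133.7 ± 10.4 CPM (n = 18), with 0.42 ± 0.07 in batch 2 (adjusted p = 0.000186) and 0.12 ± 0.13 in batch 1 (adjusted p = 0.575, edgeR). The changes of progressors and nonprogressors differed by 0.03 ± 0.10 (95% interval −0.17 to 0.23). Already at −7 weeks it was 0.29 ± 0.08 above 6 weeks (adjusted p = 0.00982, edgeR), and from −3 and −1 weeks to onset it differed by 0.06 ± 0.06 (95% interval −0.06 to 0.18). In NOR it had 136.1 ± 14.6 CPM at 6 weeks (n = 4) and 137.4 ± 16.01 CPM at 14 to 22 weeks (n = 14).

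*Slc2a1* (chromosome 4, 119108711 to 119137983, plus strand) and *Hk2* (chromosome 6, 82725025 to 82774454, minus strand) spread widely within most groups. *Slc2a1* ran from 113.4 to 506.1 CPM at 6 weeks and from 224.0 to 707.9 CPM at onset in progressors, with the widest range, 57.0 to 954.8 CPM, at −5 weeks. The onset difference of 0.49 ± 0.35 did not pass (95% interval −0.18 to 1.17, adjusted p = 0.258, edgeR). *Hk2* ran from 87.6 to 206.0 CPM at 6 weeks and from 117.8 to 348.0 CPM at onset (0.27 ± 0.22, adjusted p = 0.329, edgeR). At −7 weeks both stood low and close together, *Slc2a1* at 78.1 to 249.6 CPM and *Hk2* at 72.6 to 116.0 CPM, and all 8 mice sampled at −7 weeks were higher for each at onset. All −7 samples belonged to batch 2, whereas the onset samples of progressors 1 to 4 belonged to batch 1, so that 4 of these 8 differences cross batches.

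*Slc2a3* (chromosome 6, 122727809 to 122801640, minus strand), a transporter of high affinity, was the one transporter among the members that passed at −7 weeks over all samples. It ran from 7.86 to 30.2 CPM at 6 weeks and from 7.32 to 18.8 CPM at −7 weeks, with 7 of 8 mice lower, a difference of −0.79 ± 0.22 (adjusted p = 0.0122, edgeR). With *Mlxip* it made 2 of 10 members called there, 1 higher and 1 lower, where 5.87% of all genes were called higher and 6.61% lower. Within batch 2 the difference was −0.88 ± 0.24 (adjusted p = 0.0110), and *Slc2a1* passed there too (−1.20 ± 0.41, adjusted p = 0.0397), against −0.91 ± 0.38 over all samples (adjusted p = 0.106, edgeR). With the mouse as a block neither *Mlxip* (0.24 ± 0.10, adjusted p = 0.147) nor *Slc2a3* (−0.73 ± 0.29, adjusted p = 0.131) passed at −7 weeks, and 860 genes rather than 2656 did. The call of *Slc2a3* was also lost without progressor 7 (adjusted p = 0.0699), and that of *Mlxip* without progressor 4, 6 or 8 (adjusted p = 0.0570 to 0.0581, edgeR). Some other genes of the transporter, glycolysis and hypoxia lists were called lower at −7 than at 6 weeks. Of the 7 other transporters *Slc2a10* (−0.94 ± 0.15) and *Slc2a13* (−0.86 ± 0.20) were called lower, of 16 glycolysis genes *Hk1* (−0.35 ± 0.11) and *Gpi1* (−0.59 ± 0.20; median of the list −0.42), and of 7 hypoxia-induced genes *Car9* (−0.97 ± 0.24) and *Vegfa* (−1.10 ± 0.35). All 7 hypoxia-induced genes had negative values (median −0.94, against 0.02 for all genes tested), and the 6 genes named here as called lower were picked after their values were seen. Among the transporters *Slc2a8*, *Slc2a9* and *Slc2a12*, and among the glycolysis genes *Hk3* and *Aldoc* (0.54 ± 0.20), had positive values that did not pass, and the rest were negative. *Slc2a10* (−0.74 ± 0.14) and *Slc2a13* (−0.78 ± 0.19) were also called lower with age in nonprogressors. At onset *Slc2a3* had 10.9 to 31.7 CPM, which was not told apart from 6 weeks (0.24 ± 0.20, adjusted p = 0.344, edgeR).

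*Pfkfb3* (chromosome 2, 11471433 to 11554077, minus strand) was 91.2 to 193.0 CPM at 6 weeks and 133.3 to 259.2 CPM at onset in progressors, higher in 8 of 10 mice, and the difference of 0.43 ± 0.20 missed the threshold (adjusted p = 0.0782, edgeR). In nonprogressors it rose with age by 0.55 ± 0.15 (adjusted p = 0.00578, edgeR), from 110.5 ± 24.3 CPM (n = 11) to 174.0 ± 48.8 CPM (SD, n = 18). Within batch 1 that rise was 0.94 ± 0.21 (adjusted p = 0.0143) and within batch 2 it was 0.28 ± 0.18 and did not pass (adjusted p = 0.235, edgeR). The changes of progressors and nonprogressors differed by −0.09 ± 0.21 (95% interval −0.51 to 0.33). In NOR the difference with age was 0.42 ± 0.21 (95% interval 0.01 to 0.83) and did not pass (adjusted p = 0.682, edgeR).

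**Figure D3:**
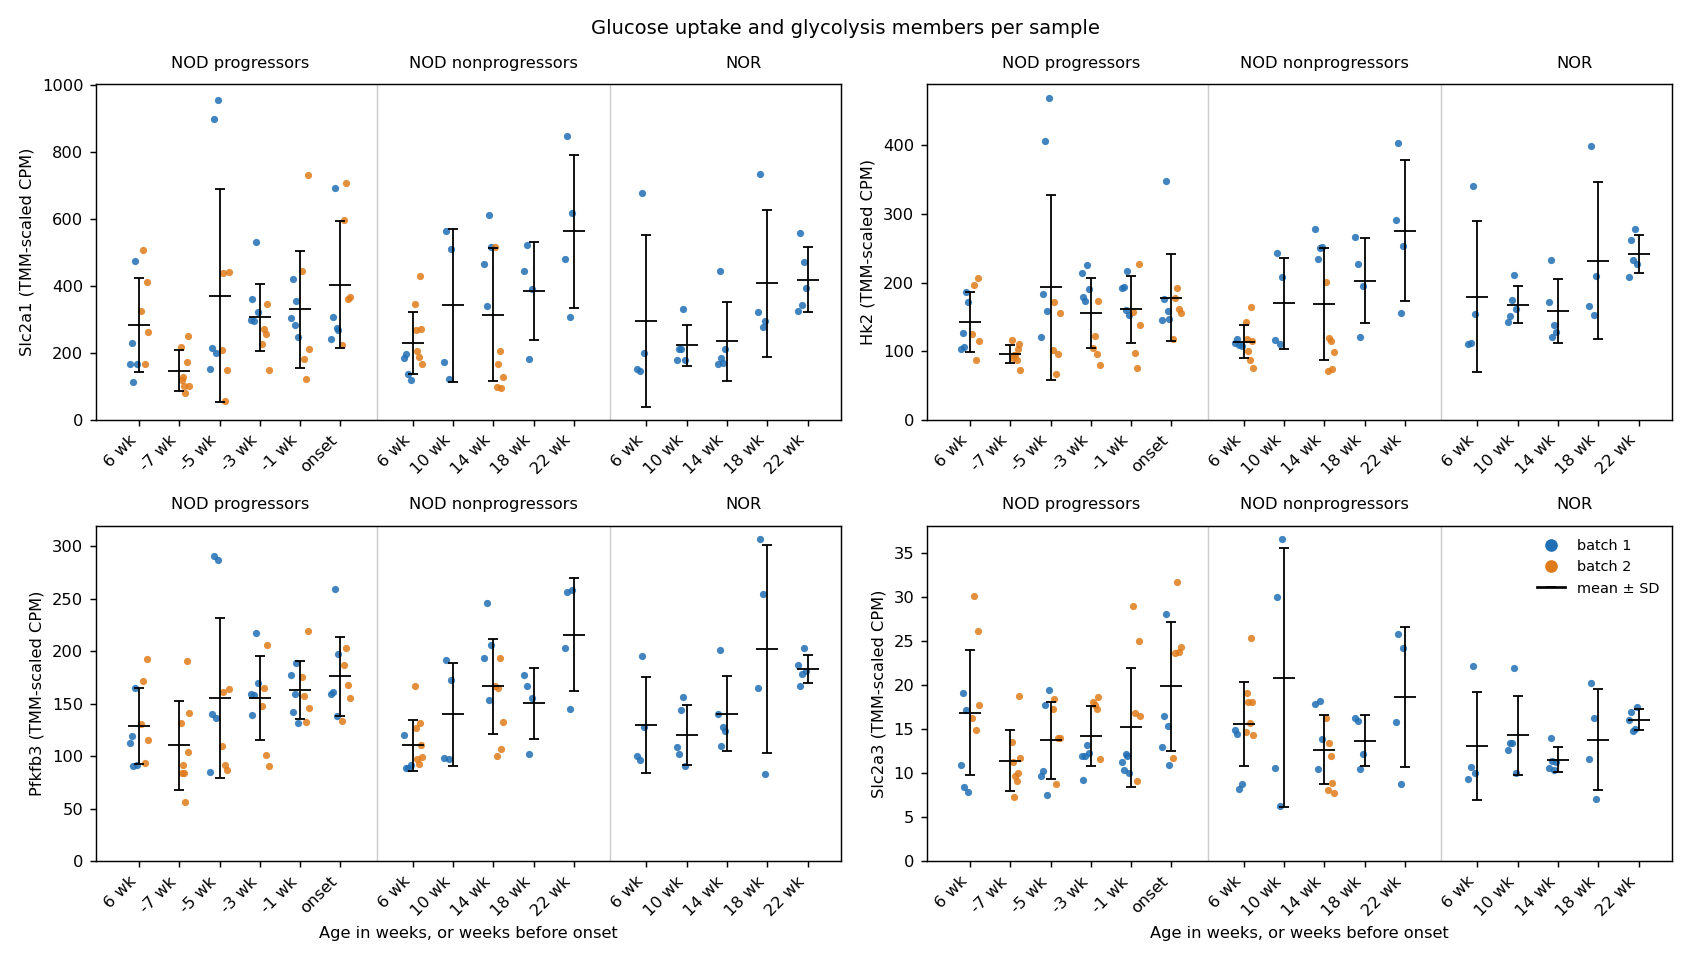
TMM-scaled CPM of *Slc2a1*, *Hk2*, *Pfkfb3* and *Slc2a3* for each sample by group and time, colored by batch, with the mean ± SD. At −7 weeks *Hk2* lies between 72.6 and 116.0 CPM, and *Slc2a1* reaches from 57.0 to 954.8 CPM at −5 weeks.

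These 4 genes varied together. After the mean of each time and batch was removed from log2 CPM of the 58 progressor samples, *Slc2a1* had r = 0.91 with *Hk2*, 0.80 with *Slc2a3* and 0.79 with *Pfkfb3*, and *Hk2* had 0.77 with *Pfkfb3*. *Txnip* did not follow them, with r = −0.27 to *Slc2a1* and −0.31 to *Hk2*, nor did *Arrdc4* (0.18 and 0.05). In nonprogressors a rise of *Slc2a1* and *Hk2* with age was called in batch 1 alone, and the difference between batches was not tested. *Slc2a1* was 1.59 ± 0.39 higher at 14 to 22 than at 6 weeks in batch 1 (adjusted p = 0.0239, edgeR) and differed by −0.43 ± 0.37 in batch 2, and *Hk2* was 1.13 ± 0.26 higher in batch 1 (adjusted p = 0.0160) and differed by −0.04 ± 0.23 in batch 2. Late nonprogressors of batch 1 were 14, 18 and 22 weeks old, and those of batch 2 were 14 weeks old. Against these nonprogressors, onset was −0.43 ± 0.36 for *Slc2a1* within batch 1 and 1.14 ± 0.40 within batch 2 (adjusted p = 0.0498, edgeR). *Slc2a3* gave 0.10 ± 0.29 and 1.03 ± 0.24 (adjusted p = 0.00486, edgeR) in the same order, and 0.61 ± 0.22 over both (adjusted p = 0.0997).

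*Slc2a4*, *Mlxipl* and *Pdk4*, which adipose tissue and muscle express strongly, formed a pattern of their own, with most samples near 0 and a few very high. *Slc2a4* (chromosome 11, 69942539 to 69948188, minus strand) ran from 0.383 to 129.4 CPM in progressors at 6 weeks (median 1.67) and from 1.26 to 14.3 CPM at onset (median 2.30). *Mlxipl* (chromosome 5, 135089890 to 135138382, plus strand) ran from 0.0510 to 23.8 CPM (median 0.378) and from 0.641 to 11.5 CPM (median 1.45), and *Pdk4* (chromosome 6, 5483351 to 5496309, minus strand) from 2.29 to 45.3 CPM (median 2.96) and from 1.23 to 17.1 CPM (median 4.57). All 3 overlapped between these times, and the fitted differences of −1.66 ± 0.80, −0.40 ± 0.86 and −0.72 ± 0.66 did not pass (adjusted p = 0.0914, 0.739 and 0.394, edgeR). For *Slc2a4* and *Mlxipl* the sign of that difference was opposite in the batches, −2.27 ± 1.10 and −1.07 ± 1.12 in batch 1 against 1.04 ± 0.88 and 2.62 ± 1.14 in batch 2.

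In late nonprogressors the medians over both batches were near those at onset for *Mlxipl* and *Pdk4* and higher for *Slc2a4*, and the highest samples were far higher. Within batch 2, onset samples had 1.26 to 2.41 CPM of *Slc2a4*, 1.12 to 1.85 of *Mlxipl* and 1.23 to 6.19 of *Pdk4*. Late nonprogressors of batch 2 had 16.6 to 30.3, 8.45 to 18.0 and 22.8 to 48.8 CPM in that order, apart from nonprogressor 5 (0.538, 0 and 2.10 CPM). At 14 to 22 weeks *Slc2a4* ran from 0.538 to 107.9 CPM (median 4.57), *Mlxipl* from 0 to 52.3 CPM (median 1.81) and *Pdk4* from 1.33 to 134.0 CPM (median 3.35). The difference of progressors at onset from them was −3.16 ± 0.80 for *Slc2a4* (adjusted p = 0.0277) and −2.58 ± 0.64 for *Pdk4* (adjusted p = 0.0243, edgeR), and for *Mlxipl* it was −2.86 ± 0.88 and missed the threshold (adjusted p = 0.0578). Within batch 2 these values were −3.45 ± 0.63, −3.31 ± 0.53 and −2.99 ± 0.77 (each passed), whereas within batch 1 they were −0.90 ± 1.13, −0.72 ± 1.02 and −0.69 ± 1.16 (none passed). The calls of *Slc2a4* and *Pdk4* were kept in 12 of 21 fits that left out a mouse and lost without progressor 3, 8, 9 or 10 or nonprogressor 6, 7, 8, 9 or 10 (adjusted p up to 0.0694 and 0.0576, edgeR).

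The change with age in nonprogressors was as dependent on the batch. Over both batches, 6 of the 10 members were called higher at 14 to 22 weeks, where 15.9% of all genes were called higher and 14.1% lower: *Arrdc4*, *Mlxip* and *Pfkfb3* as above, *Mlxipl* by 3.63 ± 0.94 (adjusted p = 0.00402), *Slc2a4* by 2.63 ± 0.78 (adjusted p = 0.0107) and *Pdk4* by 2.32 ± 0.60 (adjusted p = 0.00384, edgeR). In batch 2 these last 3 were 5.42 ± 0.77, 3.70 ± 0.56 and 2.93 ± 0.45 higher, and in batch 1 −0.19 ± 1.22, −0.58 ± 1.18 and 0.47 ± 1.08. With the mouse as a block none of the 3 passed (2.86 ± 1.70, 1.84 ± 1.17 and 1.46 ± 0.89; adjusted p = 0.242, 0.278 and 0.258).

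**Figure D4:**
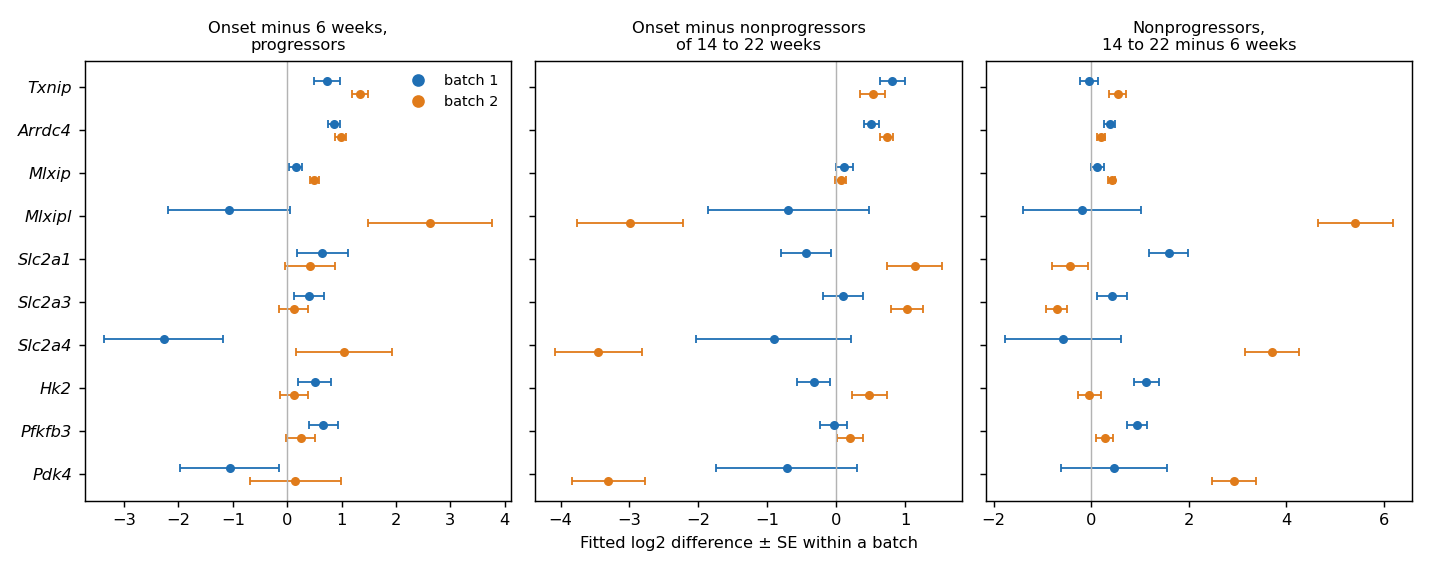
Fitted log2 difference ± SE of the 10 members within batch 1 and within batch 2 for 3 comparisons. *Arrdc4* has the same sign in both batches in each of the 3 comparisons. *Txnip*, *Hk2*, *Mlxipl*, *Slc2a4* and *Slc2a1* are among the members with opposite signs in at least one of them.

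Adipocyte and skeletal muscle markers moved with these genes. The 7 adipocyte markers summed to 32.2 to 623.8 CPM in progressors at 6 weeks (median 54.4), 54.8 to 410.5 CPM at onset (median 87.4), 35.6 to 614.1 CPM in nonprogressors at 6 weeks (median 53.3) and 17.8 to 1910 CPM at 14 to 22 weeks (median 84.3). By batch, the sum in nonprogressors averaged 366 CPM at 6 weeks and 276 CPM at 14 to 22 weeks in batch 1, and 48.3 and 729 CPM in batch 2. The defining marker *Adipoq* had a median of 5.91 CPM over all samples and was at 0 in 1 sample, *Plin1* and *Cidec* were each at 0 in 1 sample and *Lep* in 4. In onset against late nonprogressors 6 of the 7 adipocyte markers were called lower, where 1.71% of all genes were (median of the list −3.63, against 0.01 for all genes tested). Among them were *Adipoq* (−3.73 ± 0.95), *Fabp4* (−1.59 ± 0.36) and *Retn* (−3.82 ± 0.98). Over all genes that comparison gave 0 calls within batch 1 and 3827 within batch 2.

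The 8 muscle markers summed to 8.83 to 33800 CPM in progressors at 6 weeks (median 158.6), 15.3 to 6140 CPM at onset (median 382.9), 3.46 to 12150 CPM in nonprogressors at 6 weeks (median 409.5) and 11.6 to 16240 CPM at 14 to 22 weeks (median 684.8). Here 3 of the 8 were called lower at onset than in late nonprogressors (median −3.71), where 1.71% of all genes were. These were *Myh4* (−4.77 ± 1.37), *Mylpf* (−3.98 ± 1.15) and *Tnnt3* (−3.63 ± 1.06). Over the 58 progressor samples, with the means of time and batch removed, the summed adipocyte markers had r = 0.93 with *Mlxipl*, 0.85 with *Slc2a4* and 0.71 with *Pdk4*, and the muscle markers had r = 0.70, 0.77 and 0.83. For *Txnip* these were 0.58 and 0.26, and for *Arrdc4* 0.22 and −0.00. The part of adipose or muscle tissue in the results for *Slc2a4*, *Mlxipl*, *Pdk4* and *Txnip* was not tested.

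**Figure D5:**
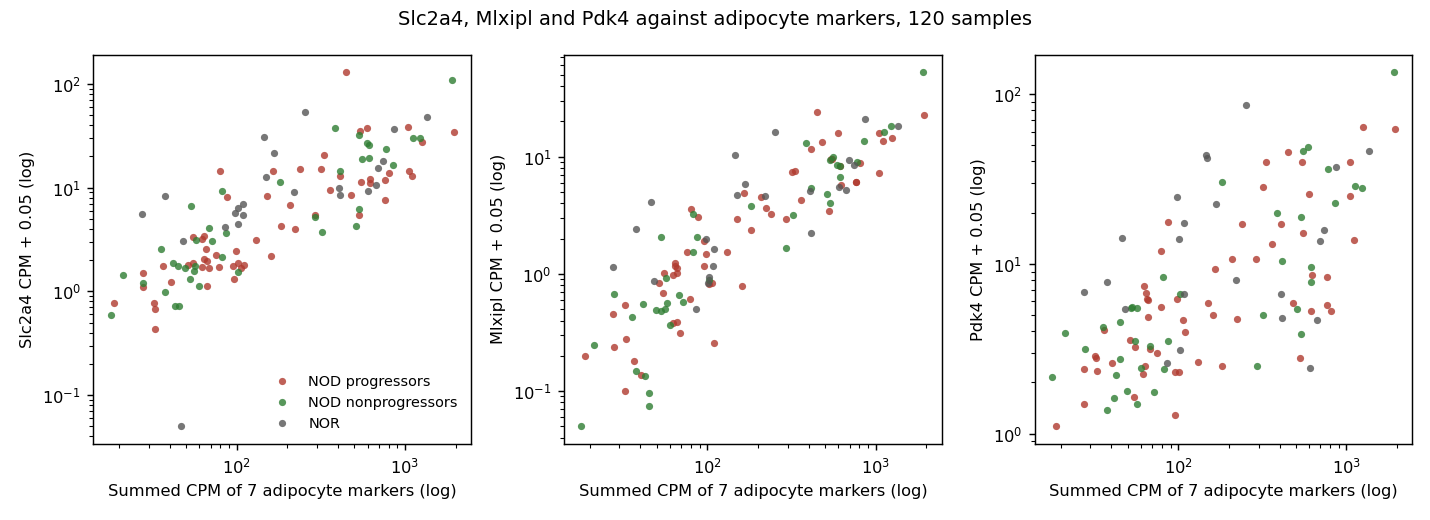
*Slc2a4*, *Mlxipl* and *Pdk4* (CPM + 0.05, log axis) against the summed CPM of 7 adipocyte markers (log axis) in 120 samples, colored by group. The highest *Mlxipl* and *Pdk4* samples, at 52.3 and 134.0 CPM, are the same nonprogressor sample at 1910 CPM of adipocyte markers.

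The remaining genes of the pathway were read from lists of relatives and targets. Of all genes tested, 39.6% passed for onset against 6 weeks (19.6% higher and 20% lower). Against late nonprogressors 3.39% passed (1.68% higher and 1.71% lower). The counts of each list, here and below, stand beside these shares. Among the other α-arrestins, *Arrdc1* (0.28 ± 0.06, adjusted p = 0.000421) and *Arrdc3* (0.48 ± 0.13, adjusted p = 0.00267, edgeR) were higher at onset than at 6 weeks in progressors. *Arrdc2* did not pass (0.09 ± 0.12). *Arrdc1* was likewise higher in late nonprogressors than in nonprogressors at 6 weeks (0.36 ± 0.06, adjusted p = 5.17e-05, edgeR). At onset *Arrdc1* was not told apart from late nonprogressors (0.04 ± 0.06, adjusted p = 0.764, edgeR). The change of *Arrdc3* with age in nonprogressors did not pass (−0.0007 ± 0.13). *Arrdc3*, which acts on adrenergic receptors and energy expenditure, was also higher at onset than in late nonprogressors (0.46 ± 0.13, adjusted p = 0.0405, edgeR). Of the 9 partners and relatives of MLX tested, 1 was called higher at onset than at 6 weeks and 3 lower (median −0.07, against −0.00 for all genes): *Mxi1* (0.41 ± 0.17), *Mxd4* (−0.34 ± 0.08), *Mxd3* (−0.63 ± 0.16) and *Myc* (−0.40 ± 0.12). *Mlx*, the obligate partner of both sensors, differed by 0.06 ± 0.09, and none of the 9 passed against nonprogressors.

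Of 14 carbohydrate-responsive genes tested, *Klf10* (0.59 ± 0.09, adjusted p = 4.72e-07, edgeR) and *Rgs16* (0.50 ± 0.20, adjusted p = 0.0423), a regulator of G-protein signaling, were higher at onset than at 6 weeks, and *Acly*, which makes cytosolic acetyl-CoA, was lower (−0.35 ± 0.09). In that comparison 19.6% of all genes were called higher and 20% lower. Against late nonprogressors *Klf10* was higher (0.49 ± 0.08, adjusted p = 0.00263, edgeR) and 10 of the 14 were lower (median −1.95). They included fatty acid synthase *Fasn* (−3.37 ± 0.55), *Thrsp* (−5.10 ± 0.94), a regulator of fat synthesis, and acetyl-CoA carboxylase *Acaca* (−1.43 ± 0.27). The adipocyte markers named above moved the same way in that comparison, and their part was not tested.

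Of 7 other glucose transporters, *Slc2a8* was higher at onset than at 6 weeks (0.23 ± 0.08) and *Slc2a10* (−0.98 ± 0.14) and the myo-inositol transporter *Slc2a13* (−1.17 ± 0.18) were lower, and none passed against nonprogressors. Of 16 other glycolysis genes, *Hk3* (0.56 ± 0.13) and *Pfkp* (0.35 ± 0.13) were higher, 1 was lower and the median was 0.00. For onset against 6 weeks, 19.6% of all genes were called higher and 20% lower. None of the 16 passed against nonprogressors (median 0.12). The 7 hypoxia-induced genes had no call at onset in either comparison (medians 0.17 and 0.25).

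Among 8 relatives of *Pfkfb3* and *Pdk4*, *Pfkfb4*, another isoform of the same bifunctional enzyme, was 0.83 ± 0.09 higher at onset than at 6 weeks (adjusted p = 1.42e-09, edgeR). Its level went from 29.2 to 44.7 CPM to 49.7 to 96.3 CPM without overlap, an upward separation that 0.705% of all genes tested had. It was 0.40 ± 0.09 higher at onset than in late nonprogressors (adjusted p = 0.0154, edgeR), whose own range of 41.8 to 63.5 CPM overlapped that of onset. The phosphatase *Pdp1*, which opposes the kinases, was 0.29 ± 0.09 higher at onset than at 6 weeks and *Pdk3* was lower (−0.51 ± 0.11).

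Of 13 genes of fasting and lipid use, *Foxo3* was higher at onset than at 6 weeks (0.23 ± 0.08) and *Angptl4* lower (−0.65 ± 0.23), and against late nonprogressors *Pck1* (−3.80 ± 1.01) and *Klf15* (−1.65 ± 0.46) were lower. Of 6 glucocorticoid-induced genes, *Sgk1* was higher at onset than at 6 weeks (0.60 ± 0.14), *Fkbp5* (−1.03 ± 0.20) and *Zbtb16* (−1.10 ± 0.45) were lower, and none passed against nonprogressors.

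Markers of other cells also differed between 6 weeks and onset in progressors. All 5 fibroblast markers were lower (among them *Col1a1*, −1.50 ± 0.20, *Col1a2*, −1.50 ± 0.21, and *Dcn*, −1.46 ± 0.29), as were 4 of 5 endothelial markers (*Cdh5*, −1.09 ± 0.31; *Kdr*, −0.99 ± 0.29; *Emcn*, −1.16 ± 0.37) and 3 of 5 erythroid markers. The fibroblast sum went from 27480 to 53050 CPM at 6 weeks to 4575 to 25290 CPM at onset, and the macrophage sum from 1832 to 2563 CPM to 1962 to 3331 CPM. *Mrc1* was higher (0.50 ± 0.20) and *Marco* lower (−4.47 ± 0.62) among 6 macrophage markers, 3 of 4 B cell markers were higher (among them *Cd79a*, 2.11 ± 0.57, and *Ms4a1*, 2.77 ± 0.75), *Cd3g* (0.97 ± 0.38) among 5 T cell markers and *Ltf* (2.26 ± 0.84) among 4 neutrophil markers tested were higher, and no epidermis or muscle marker passed. Of the adipocyte markers *Lep* was lower (−2.51 ± 0.97). The part of these shifts in the rise of *Txnip*, *Arrdc4* and *Mlxip* from 6 weeks to onset was not tested. Against late nonprogressors 4 of 5 erythroid markers were lower (*Hbb-bs*, −2.28 ± 0.56, *Hba-a1*, −2.52 ± 0.63, and *Alas2*, −2.02 ± 0.52). Most adipocyte markers and some muscle markers were also called lower there, as given above. No fibroblast, endothelial, macrophage, B cell, T cell, neutrophil or epidermis marker passed in that comparison (fibroblast median −0.29, macrophage median 0.22). The part of any of these tissues in the difference of *Txnip* from late nonprogressors was not tested.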

How the data were processed

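RNA was sequenced from 120 scaffold biopsies after ribosomal RNA depletion. The authors deposited expected counts per Ensembl gene, as whole numbers without normalization, in 1 table per batch. The submitters' processing notes name cutadapt, FastQC, STAR, RSEM, MultiQC and GRCm38. Genes in both tables were joined by Ensembl identifier, and 99.4% matched GENCODE M21, the source of coordinates and exon lengths. Rows that name no gene held at most 2.84e-06% of the counts.

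Tests used the robust quasi-likelihood fit of edgeR 4.0.16 under R 4.3.3 (low counts removed by filterByExpr, TMM, Benjamini-Hochberg over all genes tested, threshold 0.05), with batch as a term where both batches entered. Progressor times were fitted over 58 samples. Progressors and nonprogressors were compared at 6 weeks and at onset or 14 to 22 weeks (libraries summed per mouse), and NOR within batch 1. Alternatives were DESeq2 1.42.0, no filter, no batch term, single batches, each mouse left out, 14 weeks only, and the mouse as a block, whose pairing comes from mouse numbers in the labels (mean r of deviations −0.00 for the same mouse over 140 pairs, 0.00 for other mice). No pair of 416 replicates differed by as little as sampling noise. Replicates were separate mice. On simulated counts, 70% of 200 genes changed by 1 (log2) were recovered for onset against 6 weeks (20959 genes tested), and 76.5% for onset against −3 and −1 weeks (20947 genes).

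The members and lists were chosen with earlier results of these data known. *Arrdc4* was given no test in comparisons that use onset, since onset libraries entered its choice. All members were named, as were up to 3 genes past the threshold in each direction per list, by smallest p, in 2 comparisons, and the 5 genes most like *Txnip* and *Arrdc4*. RefSeq promoters were used for motifs. Correlations used log2 CPM with a prior of 0.5. Blood glucose values were not analysed here. Figures used Python 3.11.15 with matplotlib 3.10.9.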

Additional observations from a re-analysis of the deposited data

Results flagged for a closer look

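Within groups of 4 to 10 samples, 1 sample lay far from the rest in 31 of 150 combinations of a member and a group. For independent, normally spread values about 1 in 20 (7.5) would do so. Here CPM were not logged, batches were pooled and some members varied together, so an excess over chance is not shown. In each of the 31 the outlying sample was the highest, and the values are given in CPM with the nearest other sample in parentheses.

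For *Txnip* it was nonprogressor 8 at 14 weeks with 808.6 (504.8), and for *Mlxip* a NOR mouse at 10 weeks with 204.9 (166.7). For *Slc2a1* these were progressor 9 at −1 week with 731.2 (442.7) and NOR mice at 6 weeks with 677.7 (198.8), at 10 weeks with 329.2 (210.7), at 14 weeks with 443.0 (210.7) and at 18 weeks with 734.1 (321.7). The same NOR mice at 6, 10 and 14 weeks stood out for *Slc2a3* with 22.2 (10.8), 22.0 (13.5) and 14.0 (11.4). For *Hk2* it was progressor 3 at onset with 348.0 (192.2).

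For *Mlxipl* these were progressor 5 at 6 weeks with 23.8 (9.48) and at onset with 11.5 (3.52), nonprogressor 3 at 10 weeks with 6.65 (0.623), nonprogressor 2 at 14 weeks with 52.3 (18.0) and nonprogressor 4 at 22 weeks with 3.17 (0.878). For *Slc2a4* these were progressor 5 at 6 weeks with 129.4 (35.5) and at −3 weeks with 38.1 (13.9), progressor 4 at −1 week with 37.9 (20.7), NOR mice at 10 weeks with 30.6 (9.98) and at 14 weeks with 48.4 (15.5), nonprogressor 3 at 10 weeks with 19.3 (1.52) and at 18 weeks with 32.2 (3.58), and nonprogressor 2 at 14 weeks with 107.9 (30.3). For *Pdk4* these were progressor 8 at −5 weeks with 25.1 (10.6), progressor 5 at −3 weeks with 39.7 (17.5), NOR mice at 14 weeks with 46.4 (13.7) and at 22 weeks with 85.4 (22.5), nonprogressor 3 at 10 weeks with 7.79 (3.88) and at 18 weeks with 18.8 (3.47), and nonprogressor 2 at 14 weeks with 134.0 (48.8). These values of *Mlxipl*, *Slc2a4* and *Pdk4* came from 12 libraries, of which 9 had the highest adipocyte marker sum of their group, 11 the highest muscle marker sum and 12 the highest of one or the other, and the part of those tissues was not tested.

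Among the pathway genes, the change of *Fasn* from 6 weeks differed between progressors and nonprogressors, by −3.67 ± 0.72 (log2; adjusted p = 0.0365, edgeR interaction term), the progressor change being the lower. Within the groups, *Fasn* at onset was not told apart from 6 weeks in progressors (−1.27 ± 0.61, adjusted p = 0.0909), and in nonprogressors it rose with age by 2.71 ± 0.53 (adjusted p = 0.000296, edgeR). With *Fasn*, 11 of 14 carbohydrate-responsive genes tested were called higher with age there, where 15.9% of all genes were. All 7 adipocyte markers were called higher in that comparison too. In the difference of the 2 changes the 7 adipocyte markers had a median of −3.91 and all were negative, with none past the threshold, and their part was not tested.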

How the results depend on the processing

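Of 682 values of members under alternatives other than leaving out a mouse, 633 stayed on the same side of the threshold, 26 calls were lost, 23 were gained and 2 called values reversed; of 1484 values with a mouse left out, 1448 stayed, 22 were lost, 14 were gained and none reversed. The reversed values were the changes with age in nonprogressors of *Mlxipl* (−0.19) and *Slc2a4* (−0.58) within batch 1. The calls of *Txnip* and *Mlxip* between 6 weeks and onset held without any 1 mouse, and the difference of *Arrdc4* between −3 and −1 weeks and onset, which has no test, ran from 0.41 to 0.48.

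The number of members past the threshold changed as follows, where the cause was not tested. For onset against 6 weeks it was 2 of 9, and 1 within batch 1. For −7 against 6 weeks it was 2 of 10, 1 with no batch term, 7 within batch 2 and 1 to 4 without a mouse. For onset against −3 and −1 weeks it was 0 of 9, and 1 with DESeq2 and within batch 2. For onset against nonprogressors it was 3 of 9, 0 with no batch term and within batch 1, 6 within batch 2, 1 with samples entered separately and 1 to 4 without a mouse. For the progressor change against the nonprogressor change it was 0, 2 with DESeq2 and 1 within batch 2, and against the NOR change 0 and 1 with DESeq2. With the mouse as a block, the pairing left 0 members at −7 weeks and 3 rather than 6 in nonprogressors with age, and changed no other call.

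Over all genes, onset against −3 and −1 weeks gave 5 calls, 0 within batch 1, 1531 within batch 2, and 1 without progressor 5 to 251 without progressor 2. Onset against 6 weeks gave 8422 calls and 3526 within batch 1, −7 weeks 2656 and 4052 within batch 2, and the later times against −5 weeks 82, 2 within batch 2 and 267 with DESeq2. Onset against nonprogressors gave 693 calls, 0 within batch 1 and 3827 within batch 2, the change with age in nonprogressors 6141 and 1609 within batch 1, the difference of the 2 changes 5 and 433 within batch 2, nonprogressors against NOR 411 and 1087 with samples entered separately, the change in NOR 27 and 140 with DESeq2, and the progressor change against it 7 and 261 with DESeq2. *Mlxipl* (0 to 52.3 CPM) and *Slc2a4* are the members that depth limits most.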

Other observations

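In 6 samples of nonprogressors the label gave days since implantation and no age, and these entered no comparison. Their *Txnip* levels were 356.2 and 379.0 CPM at day 31, 385.1 and 334.3 CPM at day 38 and 429.4 and 378.3 CPM at day 108. *Arrdc4* was 43.5 and 45.9 CPM at day 31, 34.8 and 37.5 CPM at day 38 and 45.9 and 44.4 CPM at day 108. All 6 lay below the lowest onset sample for both genes, for *Txnip* by little (429.4 against 441.8 CPM). The share of all genes with such a separation was not computed, and onset libraries entered the choice of *Arrdc4*. In these 6 samples *Slc2a1* ran from 72.9 to 199.3 CPM and *Pfkfb3* from 52.0 to 98.0 CPM, with a median of 87.9 CPM for *Pfkfb3*.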
